A study of Homo sapiens with 30 samples.

Results

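YAP/TEAD target genes are genes that the transcriptional coactivators YAP and TAZ switch on through the TEAD family of DNA binding factors. CYR61, CTGF, ANKRD1, AMOTL2, AJUBA, LATS2, AXL and F3 were followed here, which are 8 of the 57992 genes in the deposited expression table. They were chosen by name after the RPKM of each gene in all 10 groups had been seen, and no threshold on a value was used, so that no member lies just inside or outside a limit. Their levels and changes are therefore given as a description, and the calls given with them support nothing further. CYR61 and CTGF are named CCN1 and CCN2 in newer gene releases.

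The study delivered Omomyc, a miniprotein made from the dimerization and DNA binding part of MYC that inhibits MYC, to 2 human cancer cell lines and measured RNA by RNA-Seq in 30 libraries, with 3 replicates in each of 10 groups. HCT116 colorectal carcinoma cells were untreated or received 2 or 10 μM Omomyc for 6 or 24 h, and Ramos Burkitt lymphoma cells, which carry a MYC translocation, were untreated or received 500 nM or 2.5 μM Omomyc for 6 or 24 h. For the lower HCT116 dose the label, 2 μM, was kept, although 2.5 μM stands in the methods. The titles were followed for the 24 h libraries, which carry a time tag of 4 h. In HCT116 cells Omomyc was applied with ProteoJuice, a reagent that carries protein into cells, in a medium low in serum. By the methods, medium with serum was added for incubations longer than 4 h, which include both 6 and 24 h. The sources used here do not state whether the untreated HCT116 cells received ProteoJuice or the same change of medium, and do not describe the delivery into Ramos cells. Each line has a single untreated group with no time point, so that Omomyc, its delivery, handling and time in culture cannot be told apart in a comparison with untreated cells. All comparisons of a line with untreated cells share the same 3 untreated libraries. Nothing in the labels says that the replicates are separate cultures, so p-values measure only the spread between these samples, which may be technical.

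Values are RPKM, read counts divided by the gene's length in kilobases and by library depth, so that levels can be compared between genes. The number of reads per library is unknown. Summed over genes, the RPKM came to 593633 to 1051041 in the HCT116 libraries and 783788 to 973736 in the Ramos libraries. The highest sum belonged to the third library of HCT116 cells with 10 μM for 6 h, in which 53.3% of the sum lay in 10 genes and whose mean correlation with the other 2 libraries of its group was 0.975, the lowest of the 30. For the 8 genes, each change with 10 μM at 6 h that moved by over 1.5 times or changed its call without this library is given with and without it. The epithelial markers EPCAM (99.1 to 187 RPKM), KRT8, KRT18 and CDH1 (11.4 to 22.3 RPKM) were present in every HCT116 library, while VIL1, a marker of differentiated intestinal cells, reached at most 0.0602 RPKM. The B cell markers PAX5 (38.6 to 49.3 RPKM), MS4A1, CD79A and CD79B were present in every Ramos library, and each of these 4 was at most 0.414 RPKM in HCT116 cells.

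In the Hippo pathway, the kinases STK3 and STK4 with their partner SAV1 activate the kinases LATS1 and LATS2 with their partners MOB1A and MOB1B, and the LATS kinases phosphorylate YAP and TAZ and so keep them out of the nucleus. Unphosphorylated YAP and TAZ enter the nucleus and bind the TEAD factors, which recognize the letters GGAATG or close variants in DNA. Targets of YAP include secreted matrix proteins, surface proteins and inhibitors of the pathway itself, and in the intestinal epithelium YAP is known for its part in regeneration after injury. CYR61 and CTGF are also targets of SRF, a factor that responds to serum and to the state of actin, so that genes of that response were read alongside.

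The 200 bases that begin 250 bases before the RefSeq start of CTGF and of F3 are shown because both genes rose at 6 h and their upstream letters differ. They lie at chr6:131951423-131951622 and chr1:94541810-94542009, both on the minus strand of GRCh38.p14, and are written in the direction of transcription. The TEAD letters GGAATG on either strand and the AP-1 letters TGANTCA, in which N is any base, are in capitals.
CTGF: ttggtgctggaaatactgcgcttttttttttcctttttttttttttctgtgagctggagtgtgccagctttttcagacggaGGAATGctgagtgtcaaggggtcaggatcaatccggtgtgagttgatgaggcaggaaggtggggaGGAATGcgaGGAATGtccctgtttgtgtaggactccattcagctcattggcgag
F3: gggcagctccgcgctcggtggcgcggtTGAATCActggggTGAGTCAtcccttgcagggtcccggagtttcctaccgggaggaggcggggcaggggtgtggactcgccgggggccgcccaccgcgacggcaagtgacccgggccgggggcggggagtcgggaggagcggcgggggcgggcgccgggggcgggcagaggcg

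The letters GGAATG lay 169, 104 and 95 bases before the start of CTGF, with no AP-1 letters, whereas F3 held AP-1 letters 223 and 210 bases before its start and no TEAD letters. Promoter sequences were found in the RefSeq table for 7 of the 8 genes, all but CYR61, with 10 starts. Within 250 bases before the start, GGAATG or its reverse complement CATTCC was present at 5 of the 10 starts, in CTGF, ANKRD1 (220 and 128 bases before the start) and 1 of 2 starts each of AMOTL2, AJUBA and AXL, and in 11.9% of all 35116 promoter windows of that length. RefSeq starts can differ from the gene coordinates given below. For ANKRD1 the window, chr10:90921088-90921337, reaches into the gene as placed there. AP-1 letters were present in ANKRD1 and F3 and in 6.57% of all windows. The E box letters CACGTG, to which MYC and MAX bind, were at 0 of the 10 starts and in 6.34% of all windows, and the CArG box of SRF was at 0 of the 10 and in 1.16%. These letters are no more than matches, and no binding was measured.

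CYR61 and CTGF, the secreted matrix proteins also called CCN1 and CCN2, changed more at 6 h than the other 5 genes tested. CYR61 (chr1:85580761-85583962 on GRCh38, plus strand) stood at 4.43, 4.44 and 4.60 RPKM in the untreated HCT116 libraries. It stood at 129, 82.0 and 147 RPKM after 6 h with 2 μM and at 107, 150 and 103 RPKM after 6 h with 10 μM. After 24 h it stood at 3.06, 2.33 and 3.37 RPKM with 2 μM and at 2.69, 2.96 and 2.87 RPKM with 10 μM. All 6 libraries at 6 h were thus above, and all 6 at 24 h below, every untreated library. The mean RPKM at 6 h was 26.6 times the untreated mean with 2 μM and 26.7 times with 10 μM. On the log2(RPKM + 0.5) scale, on which all fold changes here were fitted, these changes were 4.54 (95% interval 4.15 to 4.94) and 4.57 (4.22 to 4.92). At 24 h the changes were -0.56 (-0.83 to -0.28) and -0.58 (-0.78 to -0.38).

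CTGF (chr6:131948176-131951373, minus strand), whose upstream letters are given above, was lower than CYR61 in each of the 15 HCT116 libraries. It stood at 1.39, 0.711 and 1.10 RPKM in untreated cells and at 27.9, 21.8 and 33.6 RPKM after 6 h with 2 μM. With 10 μM it stood at 18.1, 28.0 and 22.9 RPKM after 6 h. The 6 h groups did not overlap with untreated cells, and the log2 fold changes were 4.18 (3.76 to 4.60) and 3.91 (3.42 to 4.40). At 24 h CTGF stood at 0.828, 0.666 and 0.836 RPKM with 2 μM, which overlaps with untreated cells, and at 0.441, 0.426 and 0.435 RPKM with 10 μM, which does not. The log2 fold change at 24 h was -0.27 (-0.69 to 0.14) with 2 μM and -0.72 (-1.15 to -0.29) with 10 μM. The fall with 10 μM lost its call without untreated replicate 1 (-0.57) or replicate 3 (-0.70). The gene AL133346.1 lies on the other strand of CTGF, and whether the counting used the strand is not given in the sources used here.

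F3, tissue factor, is the surface receptor that starts blood coagulation (chr1:94529225-94541800, minus strand). It stood at 6.87, 7.71 and 7.21 RPKM in untreated HCT116 cells. At 6 h it stood at 22.8, 17.2 and 19.1 RPKM with 2 μM and at 19.7, 28.2 and 22.8 RPKM with 10 μM. These levels were 2.71 and 3.24 times the untreated mean, with log2 fold changes of 1.37 (1.14 to 1.61) and 1.62 (1.29 to 1.95). At 24 h F3 stood at 9.44, 8.53 and 9.13 RPKM with 2 μM and at 9.32, 8.04 and 9.01 RPKM with 10 μM. All 6 of these libraries were still above the 3 untreated libraries, by a log2 fold change of 0.30 (0.13 to 0.46) and 0.26 (0.07 to 0.44). Both of these 24 h calls were lost without untreated replicate 1 (0.26 and 0.22) or replicate 3 (0.29 and 0.25), without treated replicate 1 (0.27 and 0.22) and, with 10 μM, without treated replicate 3 (0.24). They were also lost with libraries at an equal sum of RPKM (0.15 and 0.08), with all 5 HCT116 groups fitted together, with the replicate number as a block (adjusted p = 0.0536 and 0.0705, limma) and, with 10 μM, with no filter on low values or with median-ratio scaling (0.23).

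**Figure D1:**
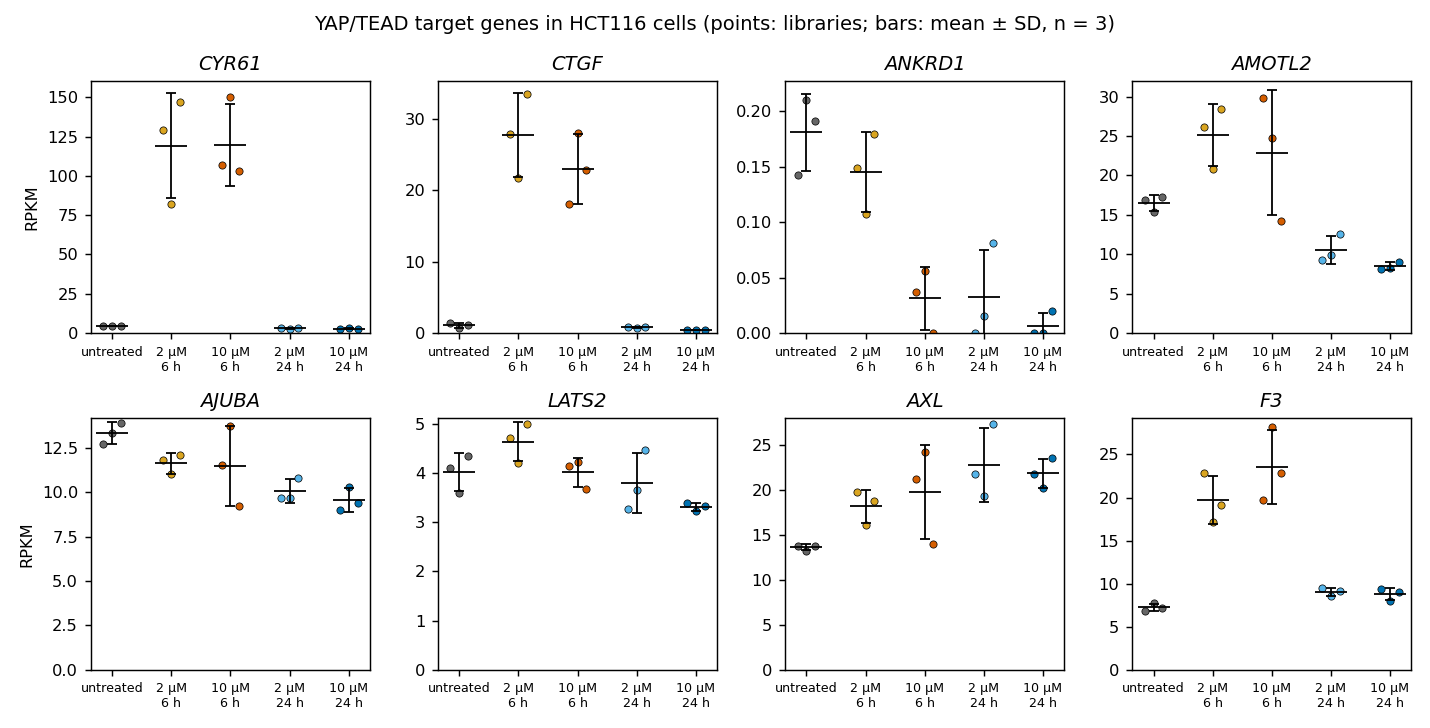
RPKM of the 8 YAP/TEAD target genes in the 15 HCT116 libraries, with an axis of its own for each gene. Points are libraries and bars are the mean ± SD of 3 libraries, cut at 0 where they pass below it. CYR61, CTGF and F3 were high in both 6 h groups, AXL was above untreated cells in both 24 h groups, and AMOTL2 and AJUBA were below them there.

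AXL, a receptor tyrosine kinase (chr19:41219203-41261766, plus strand), was higher than in untreated cells at both times. It stood at 13.8, 13.2 and 13.8 RPKM in untreated cells, at 19.7, 16.1 and 18.7 RPKM after 6 h with 2 μM, and at 21.2, 24.2 and 14.0 RPKM after 6 h with 10 μM. The last of these values came from the library with the highest RPKM sum. At 24 h AXL stood at 21.8, 19.3 and 27.3 RPKM with 2 μM and at 21.8, 20.2 and 23.5 RPKM with 10 μM. No treated library overlapped with an untreated library. The log2 fold changes were 0.40 (0.21 to 0.59) and 0.49 (0.05 to 0.93) at 6 h and 0.71 (0.46 to 0.95) and 0.66 (0.51 to 0.81) at 24 h. The change with 10 μM at 6 h was not called with all libraries on the deposited scale. It was called without the third library (0.71), with median-ratio scaling (0.62), with quantile normalization (0.59) and with all 5 HCT116 groups fitted together. At an equal sum of RPKM it was 0.01 and not called. Across the 15 HCT116 libraries, the correlation of AXL with CYR61 was -0.05. A gene on the other strand, AC011510.1, overlaps with AXL.

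AMOTL2, AJUBA and LATS2 are parts of the pathway that restrain YAP or act on LATS. AMOTL2 (chr3:134355874-134375479, minus strand), an angiomotin that binds YAP and holds it outside the nucleus, stood at 16.9, 15.3 and 17.3 RPKM in untreated HCT116 cells. It stood at 26.1, 20.8 and 28.4 RPKM after 6 h with 2 μM and at 29.8, 24.7 and 14.2 RPKM after 6 h with 10 μM. The third library was the exception, below every untreated library, and the change of 0.40 (-0.17 to 0.97) with 10 μM was not called with it and was called without it (0.70). With 2 μM the change at 6 h was 0.58 (0.33 to 0.83). At 24 h AMOTL2 stood at 9.24, 9.90 and 12.6 RPKM with 2 μM and at 8.10, 8.21 and 9.03 RPKM with 10 μM, all below untreated cells. It fell by 0.63 and 0.93 on the log2 scale.

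AJUBA (chr14:22971174-22982642, minus strand), a LIM domain protein that binds and inhibits LATS kinases, was not called at 6 h. It stood at 12.7, 13.3 and 13.9 RPKM in untreated cells and between 9.20 and 13.7 RPKM in the 6 libraries at 6 h. The changes at 6 h were -0.19 (-0.36 to -0.02) and -0.22 (-0.57 to 0.12), with 2 and 10 μM, and the latter was -0.08 without the third library. With libraries at an equal sum of RPKM, AJUBA was called lower at 6 h with 2 μM (-0.52) and 10 μM (-0.70). At 24 h AJUBA stood at 9.68, 9.68 and 10.8 RPKM with 2 μM and at 8.97, 10.3 and 9.37 RPKM with 10 μM. These 6 libraries were below all untreated libraries, and AJUBA fell by 0.39 and 0.46 on the log2 scale.

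LATS2 (chr13:20973032-21061547, minus strand), the kinase that phosphorylates YAP, was not called on the deposited scale in any of the 4 comparisons with untreated cells. It was called higher with 2 μM at 6 h after median-ratio scaling (0.32) or quantile normalization (0.38), and lower with 10 μM at 24 h at an equal sum of RPKM (-0.40). Its change with 10 μM at 6 h was 0.00, and 0.06 without the third library. It stood at 4.10, 3.59 and 4.34 RPKM in untreated cells, and the treated libraries ranged from 3.23 to 4.99 RPKM. The largest change was -0.24 (-0.46 to -0.02), with 10 μM at 24 h, where the 3 libraries at 3.38, 3.23 and 3.33 RPKM did not overlap with untreated cells. The antisense gene LATS2-AS1 overlaps with LATS2. Genes on the same strand overlap with AMOTL2 (RPL39P5 and MIR6827), AJUBA (AL132780.3) and LATS2 (RNU4-9P).

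ANKRD1 (chr10:90912096-90921276, minus strand), an ankyrin repeat protein of muscle that is widely used as a YAP target, was close to absent. It stood at 0.142, 0.210 and 0.191 RPKM in untreated HCT116 cells, at 0.149, 0.107 and 0.179 RPKM after 6 h with 2 μM, and at 0.0372, 0.0563 and 0 RPKM after 6 h with 10 μM. At 24 h it stood at 0, 0.0158 and 0.0809 RPKM with 2 μM and was at 0 in 2 of 3 libraries with 10 μM. No level reached the mean of 0.5 RPKM required for testing, and no fold change was fitted.

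Counted over the 7 genes that passed the filter on low values in HCT116 cells, 5 were called higher and 0 lower with 2 μM at 6 h, where 15.5% of the 14550 genes tested were called higher and 31.8% lower. With 10 μM at 6 h, 3 were called higher (CYR61, CTGF and F3) and 0 lower, against 8.84% and 21.2% of all genes, and 5 were called higher without the third library. The share of all genes called without that library is not given here. With 2 μM at 24 h, 2 were higher (AXL and F3) and 3 lower (CYR61, AMOTL2 and AJUBA), against 16.6% and 10.8% of all genes. With 10 μM at 24 h, 2 were higher (AXL and F3) and 4 lower (CYR61, CTGF, AMOTL2 and AJUBA), against 19.5% and 15.7% of all genes. Groups that did not overlap with untreated cells were found upward and downward in 19.3% and 38.5% of all genes with 2 μM at 6 h, 15.3% and 34.9% with 10 μM at 6 h, 26.2% and 18.7% with 2 μM at 24 h, and 26.6% and 22.7% with 10 μM at 24 h. The genes were listed with these levels known, so nothing is read from these counts. The 3 falls with 2 μM at 24 h were lost when all 5 HCT116 groups shared an estimate of the spread, in which 1 of 7 genes was called. Calls fell over all genes too, to 1113 of 14826 in that fit from 4071 of 14886 with only the groups compared.

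The scale matters for the small changes at 6 h. The median change of all genes was -0.12 with 2 μM and -0.11 with 10 μM, and it was -0.42 and -0.56 after each library was rescaled to an equal sum of RPKM. On that scale the changes at 6 h with 2 μM were 0.25 for AMOTL2 and 0.07 for AXL, neither called, and the change of AMOTL2 with 10 μM was -0.08. At an equal sum the counts at 6 h were thus 3 higher (CYR61, CTGF and F3) and 1 lower (AJUBA) at each dose. On that scale 9181 of 14550 genes were called in either direction with 2 μM and 7180 of 14785 with 10 μM. The call of AXL with 2 μM at 6 h was also lost when all 5 HCT116 groups were fitted together. CYR61, CTGF and F3 were called higher at 6 h under each of the alternatives tried.

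**Figure D2:**
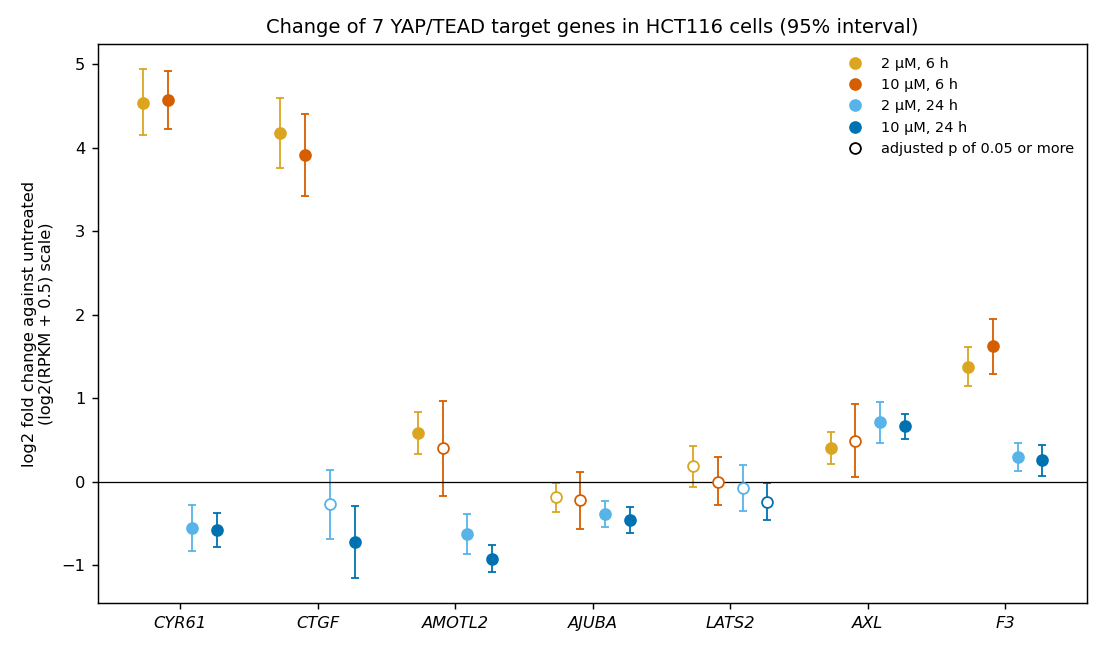
Log2 fold change of the 7 genes tested against untreated HCT116 cells, on the log2(RPKM + 0.5) scale, with 95% intervals from limma. Filled points had a Benjamini-Hochberg adjusted p under 0.05 over all genes. CYR61, CTGF and F3 lie far above 0 at 6 h, and at 24 h AXL and F3 lie above 0 and CYR61, AMOTL2 and AJUBA below it.

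Between the times, 4 of 7 genes were lower at 24 h than at 6 h at each dose and 0 were higher, where 9.85% of all genes were lower and 30.9% higher with 2 μM, and 2.06% lower and 5.80% higher with 10 μM. CYR61 was lower by a log2 difference of -5.10 (-5.55 to -4.65) with 2 μM and -5.15 (-5.51 to -4.80) with 10 μM. CTGF was lower by -4.45 (-4.79 to -4.11) and -4.63 (-5.02 to -4.25), AMOTL2 by -1.21 (-1.52 to -0.90) and -1.32 (-1.88 to -0.77), and F3 by -1.08 (-1.31 to -0.84) and -1.36 (-1.70 to -1.02). AXL differed by 0.31 (0.02 to 0.60) and 0.17 (-0.27 to 0.61), AJUBA by -0.20 (-0.39 to -0.01) and -0.24 (-0.59 to 0.12), and LATS2 by -0.26 (-0.55 to 0.03) and -0.24 (-0.53 to 0.05), and none of these 3 was called. Without the third library with 10 μM at 6 h, AMOTL2 differed by -1.63, AJUBA by -0.38, which was then called, and AXL by -0.05.

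Between the doses, limma called 0 of 7 genes at 6 h, where 0% of 14601 genes were called, and 0 of 7 at 24 h, where 0.180% of 15039 genes were called. At an unadjusted p under 0.05 the counts were 0 of 7 at 6 h and 2 of 7 at 24 h. These 2 genes, CTGF with a difference of 10 μM minus 2 μM of -0.45 (-0.82 to -0.08) and AMOTL2 with -0.30 (-0.55 to -0.05), did not overlap between the doses at 24 h, which in that direction held for 10.6% of all genes. At 6 h the intervals were wide, with -0.51 to 0.57 for CYR61, -0.72 to 0.19 for CTGF and -0.13 to 0.62 for F3, so that differences of this size between doses were not detectable with 3 libraries. Without the third library with 10 μM the difference between doses at 6 h was 0.13 rather than 0.03 for CYR61 and 0.12 rather than -0.18 for AMOTL2. It was 0.11 rather than -0.03 for AJUBA and 0.32 rather than 0.09 for AXL, and 0 of 7 genes were called.

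The genes fell into patterns across the 15 HCT116 libraries. On the log2(RPKM + 0.5) scale CYR61 correlated with CTGF at 0.99, with F3 at 0.95, with AMOTL2 at 0.84 and with LATS2 at 0.62. Its correlation with AJUBA was 0.28, with ANKRD1 0.20 and with AXL -0.05. These are descriptions over the libraries of 5 groups, which share a cell line and their treatments. A mean pattern of the 8 genes was formed from values centred but not scaled per gene, so that CYR61 and CTGF, with the largest changes, weigh most in it. Among 11671 other genes with a mean of at least 2 RPKM, the 5 most like this mean pattern were MAFF (0.993), TRIB1 (0.988), JUN and DUSP5 (both 0.987) and TUFT1 (0.986). JUN, a subunit of AP-1, averaged 7.77 RPKM in untreated cells, 55.4 and 46.4 RPKM at 6 h, and 8.89 and 5.74 RPKM at 24 h. DUSP5, a phosphatase that inactivates ERK, averaged 30.0 RPKM in untreated cells, 161 and 116 RPKM at 6 h, and 30.3 and 26.0 RPKM at 24 h. The 5 most like CYR61 were CRY1 (0.989), TRIB1 (0.988), and THBS1, MAFF and AREG (each 0.987). THBS1, the matrix protein thrombospondin, averaged 4.07 RPKM in untreated cells and 63.7 and 66.8 RPKM at 6 h, and AREG, an EGF receptor ligand, averaged 192 RPKM in untreated cells and 532 and 560 RPKM at 6 h.

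Of 15 further genes of a published YAP/TAZ target signature, 4 of 11 tested rose and 2 fell with 2 μM at 6 h, and 4 of 10 rose and 1 fell with 10 μM, where 15.5% and 31.8% of all genes were called higher and lower with 2 μM and 8.84% and 21.2% with 10 μM. With 2 μM the split was 2 higher and 4 lower at an equal sum of RPKM, where 9181 of 14550 genes were called in either direction. It was 4 and 0 with median-ratio scaling or without untreated replicate 1. Median-ratio scaling called 6573 of 14550 genes in either direction, and the share of all genes called without that replicate is not given here. NUAK2, a stress-activated kinase, stood at 1.31, 1.13 and 1.19 RPKM in untreated cells and rose to 7.87, 4.91 and 7.74 RPKM with 2 μM and to 6.70, 4.57 and 4.42 RPKM with 10 μM. Its log2 fold changes were 2.07 ± 0.170 (SE, adjusted p = 4.18e-05) and 1.72 ± 0.173 (adjusted p = 0.000996), against a largest rise of 4.57 in the 8 genes. The growth arrest gene GADD45A rose by 0.72 with 2 μM (adjusted p = 0.000805), FJX1 by 0.59 with 2 μM and 1.03 with 10 μM (adjusted p = 0.000784 and 0.00403), and NT5E, the ectonucleotidase CD73, by 0.79 with 10 μM (adjusted p = 0.00385). The median change of the signature genes was 0.01 with 2 μM and 0.14 with 10 μM at 6 h, beside -0.12 and -0.11 for all genes tested and 0.58 and 0.49 for the 7 YAP/TEAD targets. With 2 μM at 24 h, 1 of 12 rose and 1 fell, where 16.6% of all genes were called higher and 10.8% lower. With 10 μM at 24 h, 1 of 11 rose and 3 fell, where 19.5% of all genes were called higher and 15.7% lower. NT5E was the gene that rose, by 0.64 and 0.89 (adjusted p = 0.00133 and 8.83e-05), so that like AXL it was higher than in untreated cells at both times. PTPN14, a phosphatase that binds YAP, fell by 0.39 and 0.58, and ASAP1 fell by 0.53 with 10 μM. The median was -0.01 and -0.06, beside 0.04 and 0.02 for all genes.

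Of 23 Hippo pathway and TEAD cofactor genes, 21 were tested in each comparison, and 1 rose and 11 fell with 2 μM at 6 h, 0 rose and 10 fell with 10 μM at 6 h, 1 rose and 11 fell with 2 μM at 24 h, and 0 rose and 13 fell with 10 μM at 24 h. Of all genes, 15.5%, 8.84%, 16.6% and 19.5% were called higher in these comparisons and 31.8%, 21.2%, 10.8% and 15.7% lower. At an equal sum of RPKM the split at 6 h was 0 higher and 18 lower with 2 μM and 0 and 16 with 10 μM. On that scale 9181 of 14550 genes were called in either direction with 2 μM and 7180 of 14785 with 10 μM. The median change of all genes was then -0.42 and -0.56. With median-ratio scaling the split at 6 h was 2 and 8, and 1 and 7. It called 6573 of 14550 and 4490 of 14785 genes in either direction. On the deposited scale the median change of the listed genes was -0.23, -0.40, -0.17 and -0.29, in the order of the comparisons above. YAP1 stood at 51.7, 48.5 and 56.1 RPKM in untreated cells and at 43.1, 45.4 and 44.6 RPKM with 2 μM at 6 h. YAP1 fell by 0.23 and 0.40 at 6 h (adjusted p = 0.0231 and 0.028) and by 0.52 and 0.53 at 24 h (adjusted p = 0.000983 and 0.000211). TEAD1, the most abundant TEAD factor here, stood at 60.3, 52.6 and 60.7 RPKM in untreated cells and fell by 0.45 and 0.56 at 6 h and by 0.45 and 0.68 at 24 h. WWTR1, which encodes TAZ, changed by 0.14 and 0.26 at 6 h without a call and fell by 0.40 and 0.47 at 24 h (adjusted p = 0.00428 and 0.00182). TEAD2 fell at 6 h by 0.41 and 0.55, TEAD3 fell by 0.60 with 10 μM at 6 h (by 0.40 without the third library), and TEAD4 rose by 0.36 with 2 μM at 6 h (adjusted p = 0.00273) and changed by 0.19 with 10 μM, which was 0.40 and called without the third library. AMOT and FRMD6, which act upstream of LATS, fell by 0.94 and 0.81 with 2 μM and by 0.91 and 0.79 with 10 μM at 6 h. The kinase gene STK3 fell by 0.66 with 2 μM at 6 h, and MOB1B fell by 0.43 and 0.58 at 24 h. The count with 10 μM at 6 h went from 10 to 14 without the third library, and fell to 3 without untreated replicate 1, to 6 without replicate 2 and to 4 without replicate 3, and the count of 12 with 2 μM at 24 h fell to 6 without untreated replicate 1 or replicate 3. Shares of all genes called in these fits are not given here, so nothing about the list is read from these shifts.

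**Figure D3:**
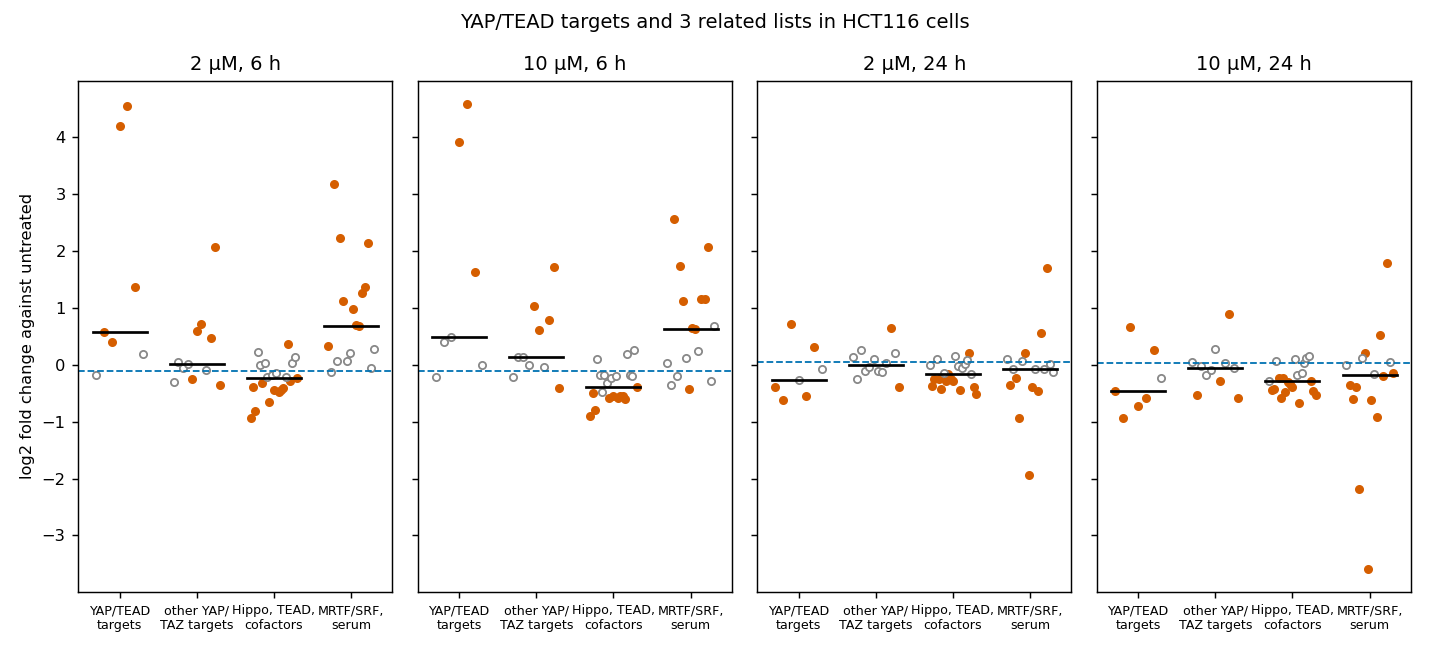
Log2 fold change against untreated HCT116 cells of the YAP/TEAD targets and of 3 related gene lists, 1 point per gene tested, with filled points at an adjusted p under 0.05. Black bars are list medians and dashed lines are the medians of all genes tested. The serum response list lies above the dashed line at 6 h, with a median of 0.68 with 2 μM and 0.63 with 10 μM.

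Genes of the MRTF/SRF and serum response, among whose known targets are CYR61 and CTGF, were followed as a further list. Of 17 listed genes 16 were tested. At 6 h 10 rose and 0 fell with 2 μM and 8 rose and 1 fell with 10 μM, with medians of 0.68 and 0.63. Of all genes, 15.5% and 8.84% were called higher there and 31.8% and 21.2% lower. At an equal sum of RPKM the split at 6 h was 9 higher and 3 lower with 2 μM and 6 and 4 with 10 μM. On that scale 9181 of 14550 and 7180 of 14785 genes were called in either direction. At 24 h 3 rose and 6 fell with 2 μM, and 3 rose and 9 fell with 10 μM. Of all genes, 16.6% and 19.5% were called higher at 24 h and 10.8% and 15.7% lower. ATF3, a stress-induced factor, stood at 7.61, 7.73 and 7.81 RPKM in untreated cells and at 73.3, 69.0 and 78.0 RPKM with 2 μM at 6 h, a log2 fold change of 3.17 (adjusted p = 2.82e-08), and rose by 2.56 with 10 μM. EGR1, an immediate early factor, rose by 2.23 and 1.73 at 6 h and fell by 0.94 and 2.18 at 24 h. FOS, a subunit of AP-1, changed by 0.21 with 2 μM at 6 h without a call, fell by 0.43 with 10 μM at 6 h (adjusted p = 0.0291) and fell by 1.94 and 3.58 at 24 h (adjusted p = 0.000355 and 2.51e-08). TAGLN, an actin-binding SRF target, rose by 2.13 and 2.06 at 6 h and by 1.70 and 1.78 at 24 h. SRF itself rose by 1.36 and 1.16 at 6 h. Whether serum, the reagent or the handling had a part in these changes or in those of CYR61 and CTGF was not tested. Without the third library, 14 rather than 9 of the genes of this list were called with 10 μM at 6 h, 11 higher and 3 lower. How many of all genes were called in that fit is not given here, so nothing about the list is read from the rise.

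Ramos cells lacked most of the 8 genes. CYR61, CTGF, ANKRD1 and F3 were listed at 0 in all 15 Ramos libraries, and AMOTL2, LATS2 and AXL reached at most 0.0544, 0.0108 and 0.0117 RPKM. AJUBA was the exception and stood at 1.12, 0.671 and 0.684 RPKM in untreated Ramos cells, against 12.7 to 13.9 RPKM in untreated HCT116 cells. The partners of the pathway were low there too. YAP1 stood between 0.445 and 1.16 RPKM in the Ramos libraries, TEAD2 reached 0.343 RPKM, and WWTR1, TEAD1, TEAD3 and TEAD4 were at most 0.119 RPKM. In untreated HCT116 cells the order of levels was AMOTL2, AXL and AJUBA, F3, CYR61 and LATS2, CTGF and ANKRD1. AXL (13.2 to 13.8 RPKM) and AJUBA (12.7 to 13.9 RPKM) did not differ beyond their spread, and the highest LATS2 library (4.34 RPKM) was just below the lowest CYR61 library (4.43 RPKM). All 7 genes tested were called higher in HCT116 than in Ramos cells, as were 45.7% of the 15647 genes tested, but for 6 of them the filter was passed through HCT116 cells alone and the count adds nothing.

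**Figure D4:**
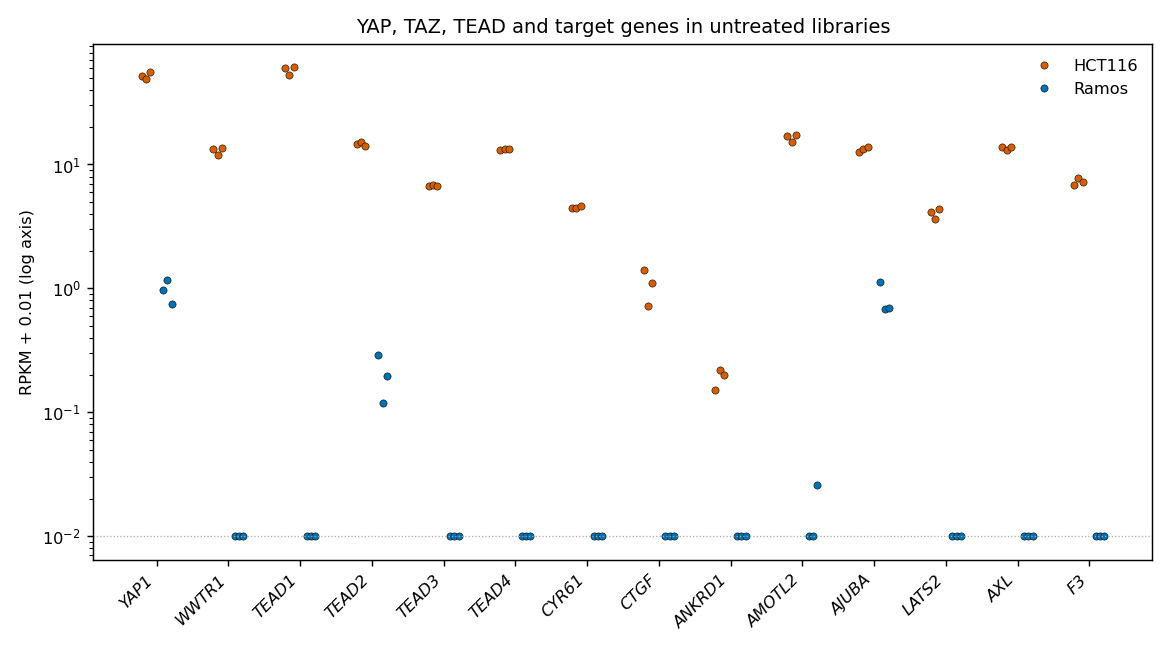
RPKM + 0.01, on a log axis, of YAP1, WWTR1, the TEAD genes and the 8 target genes in the 3 untreated libraries of each line. Points on the dotted line are listed at 0. YAP1, TEAD2 and AJUBA were above 0 in all 3 untreated Ramos libraries, AMOTL2 in 1, and the other genes were listed at 0 there.

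AJUBA was not called in any of the 4 Ramos comparisons, where 23.6%, 27.9%, 0.0146% and 4.61% of the genes tested were called with 500 nM at 6 h, 2.5 μM at 6 h, 500 nM at 24 h and 2.5 μM at 24 h. Its changes were -0.04 (-0.48 to 0.41), -0.27 (-0.74 to 0.19), 0.01 (-0.48 to 0.49) and 0.06 (-0.40 to 0.52) in that order. With limma its unadjusted p was not under 0.05 in any of them (0 of 4). The signature genes gave 1 call among 4 tested with 500 nM at 6 h, 2 of 3 with 2.5 μM at 6 h, 0 of 4 with 500 nM at 24 h and 1 of 3 with 2.5 μM at 24 h, and ASAP1 fell in 3 of these, by 0.62, 0.68 and 0.58. The other call with 2.5 μM at 6 h was a rise of 0.34 in GADD45A. The Hippo and cofactor genes gave 4, 5, 0 and 1 calls of 13 tested, and the serum response genes 4, 6, 0 and 0 of 14. At an unadjusted p under 0.05 the 0 counts were 0 of 4 signature genes, 0 of 13 Hippo genes and 3 of 14 serum response genes with 500 nM at 24 h, and 1 of 14 serum response genes with 2.5 μM at 24 h. Of the serum response calls at 6 h, 2 were higher and 2 lower with 500 nM, and 2 higher and 4 lower with 2.5 μM. EGR1 and ATF3, which rose in HCT116 cells, fell by 0.62 and 0.58 in Ramos cells with 2.5 μM at 6 h (adjusted p = 0.00824 and 0.0453, limma). SRF went the other way, as in HCT116 cells. It stood at 13.4, 12.6 and 13.5 RPKM in untreated Ramos cells and at 17.6, 17.1 and 16.1 RPKM with 2.5 μM at 6 h. In a model of both lines with the nearest doses, 2 μM in HCT116 and 2.5 μM in Ramos cells, AJUBA was the one gene of the 8 that passed the filter in each line. The change of AJUBA in HCT116 minus that in Ramos cells was 0.08 (-0.30 to 0.47) at 6 h and -0.45 (-0.84 to -0.06) at 24 h, and neither was called. The calls for the others, 5 higher at 6 h (12.2% of all genes) and 1 higher and 2 lower at 24 h (6.81% and 9.51%), only repeat the changes in HCT116 cells, since CYR61, CTGF, F3, AXL and AMOTL2 were at or near 0 in Ramos cells, and nothing about a difference between the lines is read from them.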

How the data were processed

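RNA-Seq libraries numbered 30, 15 from HCT116 cells and 15 from Ramos cells, with 3 replicates per group, from rRNA-depleted total RNA with a stranded kit. The deposited values are RPKM, computed by the authors for 57992 Ensembl identifiers in each library. RSEM is listed in the submitters' processing notes, and its version, the aligner, the genome build and the annotation are not given in the sources used here. RPKM depends on the total of each library, so a few abundant genes can shift the rest. The depth is unknown, and precision rests on the replicates.

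Gene names and coordinates were looked up in GENCODE release 29 (GRCh38), in which 57388 of the identifiers were found. Promoter sequences came from RefSeq on GRCh38.p14. The 8 genes and the 3 related lists were chosen with earlier results of these data known. Named from the lists were the 3 called genes with the largest change in each HCT116 comparison with untreated cells, with YAP1, WWTR1 and the TEAD genes always named. SRF in both lines, and in Ramos cells ASAP1, GADD45A, EGR1 and ATF3, were named after their values had been seen.

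Log2(RPKM + 0.5) was fitted with limma 3.58.1 in R 4.3.3 (lmFit, eBayes with a trend) on the libraries of the groups compared, after genes whose RPKM averaged under 0.5 in them had been removed. A gene was called at a Benjamini-Hochberg adjusted p under 0.05 over all genes tested. The procedure was checked on simulated data. Alternatives were pseudocounts of 0.1 and 1, no filter on low values or a stricter one at 2 RPKM, 3 other scalings (quantile normalization, median ratio, equal sum), eBayes without a trend, a block for the replicate number, a fit of all groups together, and leaving out each library in turn.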

Additional observations from a re-analysis of the deposited data

Results flagged for a closer look

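The results given here are those in which a gene differed between times, by a limma test of the difference over all genes. The YAP/TEAD targets were listed with these differences known, so the values are a description.

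Between 24 h and 6 h in HCT116 cells, the log2 difference with 2 μM was -5.10 for CYR61, -4.45 for CTGF, -1.21 for AMOTL2 and -1.08 for F3. With 10 μM it was -5.15 for CYR61, -4.63 for CTGF, -1.32 for AMOTL2 and -1.36 for F3. The same untreated libraries would serve both times, so that the difference of the changes is the difference between the times.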

How the results depend on the processing

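RPKM without read counts gives no limit of detection, so values under about 0.5 RPKM, such as ANKRD1 and CTGF at 24 h with 10 μM, rest on the replicates alone. The replicate numbers did not pair the libraries: over 12 comparisons the correlations of same-numbered deviations ran from -0.303 to 0.184, no comparison had all of them over 0.1, and in 1 every library correlated best with its own number. With the replicate block, F3 at 24 h was not called (adjusted p = 0.0536 with 2 μM and 0.0705 with 10 μM, limma), the signature count in Ramos cells was 1 with 2.5 μM at 6 h and 0 at 24 h, and the Hippo count was 0 with 2.5 μM at 24 h. In Ramos cells with 2.5 μM, 3099 of 13595 genes were called with this block at 6 h and 197 of 13607 at 24 h.

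Of the counts over all comparisons, 574 stayed within 1.5 times under an alternative and 61 did not, and the cause was not tested. Counts of 0 that stayed 0 are among the 574, as for the 1 YAP/TEAD target tested in Ramos cells. Such counts could hardly differ, so the number of 574 does not measure how stable the results are. Without a filter, the Hippo count was 5 with 2 μM in HCT116 cells at 24 h, where 2282 of 29848 genes were called. In Ramos cells without a filter, the signature count was 0, 1 and 0 with 500 nM at 6 h, 2.5 μM at 6 h and 2.5 μM at 24 h, the serum response count was 2 with 500 nM at 6 h, and the Hippo count was 0 with 2.5 μM at 24 h. Calls over all genes in these comparisons were 2008 of 25313, 2665 of 25647 and 84 of 25387. With an equal RPKM sum, the signature count was 2 and the Hippo count 16 with 10 μM at 6 h and the signature count 4 with 2 μM at 24 h in HCT116 cells. Calls over all genes were 7180 of 14785 and 3873 of 14886 there. In Ramos cells on that scale, the serum response count was 3 with 2.5 μM at both times, and at 24 h the signature count was 2 and the Hippo count 4. Calls over all genes were then 4677 of 13595 at 6 h and 5365 of 13607 at 24 h. On the deposited scale they were 3795 of 13595 and 627 of 13607. At an equal sum of RPKM, the difference between lines was called for 3 genes at 6 h, and for 9816 of all 15562 genes. With all 10 groups in one fit it was called for 1 gene at 24 h, and for 1333 of all 15630 genes. With all groups of the line fitted together, the counts with 2 μM at 24 h were 1 YAP/TEAD target, 1 signature gene, 3 Hippo genes and 5 serum response genes, and the signature count in Ramos cells was 0 with 2.5 μM at 24 h. That fit called 1113 of 14826 genes with 2 μM at 24 h in HCT116 cells. It called 1242 of 13594 in Ramos cells with 2.5 μM at 24 h. With median-ratio scaling or quantile normalization, the signature count was 1 with 2.5 μM at 6 h and the Hippo count 0 with 2.5 μM at 24 h in Ramos cells. Calls over all genes were 3678 and 3606 of 13595 at 6 h, and 350 and 323 of 13607 at 24 h. Without a trend, the signature count in Ramos cells was 0, 1 and 0 with 500 nM at 6 h, 2.5 μM at 6 h and 2.5 μM at 24 h. The Hippo count was 0 with 2.5 μM at 24 h. Calls over all genes were 2387 of 13614, 3046 of 13595 and 24 of 13607 in these comparisons.

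Leaving out each library in turn gave, with 10 μM at 6 h, 3 to 5 YAP/TEAD targets, 3 to 14 Hippo genes and 7 to 14 serum response genes, and with 2 μM at 24 h 6 to 12 Hippo genes. In Ramos cells it gave 0 to 1 signature genes and 2 to 5 serum response genes with 500 nM at 6 h, 1 to 2 signature genes with 2.5 μM at 6 h, and 0 signature genes and 0 to 1 Hippo genes with 2.5 μM at 24 h. Shares of all genes called with a library left out are not given here. The sign changed for uncalled values only: with an equal sum, LATS2 was -0.12 with 2 μM and -0.44 with 10 μM and AMOTL2 -0.08 with 10 μM at 6 h. Near 0, with 1 library left out, LATS2 ranged from -0.07 to 0.06 with 10 μM at 6 h (-0.02 and -0.03 without treated replicates 1 and 2) and from -0.19 to 0.01 with 2 μM at 24 h. CTGF and F3 at 24 h with 10 μM and CYR61 at 24 h with 2 μM lost their calls without a filter.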
